A study of Mus musculus with 12 samples.

Results

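The BTG and TOB genes encode small proteins that slow cell division. They were examined together with 3 further genes known for restraint of growth, Pdcd4, Txnip and Tsc22d3, giving 8 genes (Btg1, Btg2, Btg3, Tob1, Tob2, Pdcd4, Txnip and Tsc22d3) among the 24439 gene names listed for each library. The 8 genes were chosen from their measured levels in these same libraries, so the values below describe them, no P value is given for any of them, and counts of them past a threshold are a description too. All 8 were among the 12442 genes that passed a minimum of 1 TPM in at least 1 library.

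The data are RNA-Seq libraries from mouse CD4 T blast cells (TB), in 4 groups of 3 replicates, made to ask how interleukin-2 (IL-2) shapes gene expression in previously activated T cells. CD4 T cells from the spleen of C57BL/6 C42 mice were stimulated for 40 h with 2 μg/ml Concanavalin A, a lectin that activates T cells, and then expanded in IL-2 at 50 U/ml. The labels give 2 days for the expansion and the methods give 30 h. For the last 16 h the cells either kept IL-2 (TB IL-2) or were deprived of it (TB IL-2nil). The TB+ IL-2 and TB+ IL-2nil groups were also given 20 ng/ml PMA and 2 μM calcium ionophore (PMA/I) for 2 h, which mimics signalling from the T cell receptor. C42 mice carry a transgene holding a fragment of the human IL3/CSF2 locus, and all 4 groups share it. The methods state the removal of dead cells only where required. The sources used here do not say whether the replicates came from separate mice, so the spread between them may be partly technical.

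Libraries labelled TB IL-2nil replicate 3 and TB+ IL-2 replicate 3 went against their labels. Il2, a gene that stimulation switches on, was at 1368 FPKM in the first and at 0.29 FPKM in the second, whereas the other libraries labelled TB+ had 1095 to 2374 FPKM and the others labelled TB had at most 1.18 FPKM. These 2 libraries were placed in each other's group throughout, and below replicate 3 of TB IL-2nil and of TB+ IL-2 always means the library after this move. Each difference of the 8 genes given below is followed by its value with the groups as labelled and with both libraries left out. The defining markers of T cells (Cd3d, Cd3e, Cd3g, Cd4 and Lck) summed to 1194 to 2167 TPM in every library. Lyz2, Csf1r, Ncr1, Klrb1c, Klre1 and Hbb-b1, which mark myeloid, NK and erythroid cells, were under 0.1 FPKM in all 12. The other myeloid markers, Cd68, Itgam and Adgre1, were detected and summed to 1.57 to 4.88 TPM, and the erythroid Hba-a1 reached 8.69 TPM in TB IL-2 and 12.9 TPM in TB+ IL-2 but at most 0.28 TPM in TB IL-2nil and 0 in TB+ IL-2nil. The part of these markers in the results was not tested.

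BTG and TOB proteins share a conserved domain through which they bind the catalytic subunits of the CCR4-NOT complex, the main enzyme that shortens the poly(A) tails of mRNA. The TOB proteins also bind the cytoplasmic poly(A) binding protein and so bring the deadenylase to mRNA. In lymphocytes this family is known for keeping resting cells quiescent and for limiting proliferation. PDCD4 binds the RNA helicase eIF4A and restrains translation until S6 kinase marks it for destruction. TXNIP, an alpha-arrestin, binds thioredoxin and lowers glucose uptake. TSC22D3, also called GILZ, is a leucine zipper protein induced by glucocorticoids and by FOXO factors.

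The regulatory sequence before 3 of the genes is shown, those holding the FOXO letters or the cAMP response element. Pdcd4 and Tsc22d3 held letters for other signal-dependent factors, given below, and their sequences are not shown. FOXO factors are held out of the nucleus by PI3K and AKT signalling, which IL-2 activates, and the cAMP response element is bound by CREB family factors. The sequences were taken from a RefSeq table (GRCm38.p6), cover the 250 bases before the start site on the gene's own strand, and each matched mm9 once. Capitals mark the FOXO letters GTAAACA, or their complement, in Txnip and Btg1 and the cAMP response element TGACGTCA in Btg2.
Txnip: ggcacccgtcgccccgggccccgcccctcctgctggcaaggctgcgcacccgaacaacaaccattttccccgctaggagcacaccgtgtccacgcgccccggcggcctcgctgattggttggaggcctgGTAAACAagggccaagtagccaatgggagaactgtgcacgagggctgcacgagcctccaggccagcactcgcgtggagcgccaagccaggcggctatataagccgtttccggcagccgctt
Btg1: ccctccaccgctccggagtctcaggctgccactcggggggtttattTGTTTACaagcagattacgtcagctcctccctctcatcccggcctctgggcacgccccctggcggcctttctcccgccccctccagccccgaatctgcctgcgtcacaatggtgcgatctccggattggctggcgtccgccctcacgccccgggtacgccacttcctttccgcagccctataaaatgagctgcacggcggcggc
Btg2: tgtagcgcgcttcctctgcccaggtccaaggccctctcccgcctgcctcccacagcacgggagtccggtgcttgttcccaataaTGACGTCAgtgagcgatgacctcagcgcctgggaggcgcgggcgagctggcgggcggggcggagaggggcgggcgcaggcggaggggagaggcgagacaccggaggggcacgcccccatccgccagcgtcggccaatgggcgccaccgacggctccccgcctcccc
The windows were chr3:96361630-96361879 for Txnip, chr10:96079385-96079634 for Btg1 and chr1:135975733-135975982 for Btg2, the last on the minus strand. The FOXO letters began 121 bases before the Txnip start site and 204 bases before that of Btg1, and the cAMP response element began 166 bases before that of Btg2.

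The same windows, extended a little past the start site, and those of the other 5 genes were searched on both strands for 6 motifs fixed together. Btg3, Pdcd4 and Tsc22d3 had more than 1 window. Of 32851 mouse promoters of that length, 3.65% held the FOXO letters and 1.79% held the cAMP response element. Apart from Txnip and Btg1, none of the 8 genes held the FOXO letters in any window, and so Tsc22d3 did not. The STAT letters TTCNNNGAA, held by 8.3% of promoters, lay in 1 Pdcd4 window and 1 Tsc22d3 window. The glucocorticoid receptor letters AGAACA, held by 19% of promoters, lay in another window of each of these 2 genes. Neither the E-box CACGTG (7.15% of promoters) nor the AP-1 letters TGANTCA (7.81%) were in any window of the 8 genes, and the windows of Btg3, Tob1 and Tob2 held none of the 6 motifs. These matches describe letters and not bound sites.

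Levels are given in TPM (transcripts scaled to a fixed total, computed from the deposited FPKM and brought to a common upper quartile), which is per transcript length and so allows genes to be set side by side. Differences are on the log2(TPM + 1) scale, which understates the change of genes near 1 TPM. RNA was measured over many cells together, so a higher level could mean more RNA per cell or more cells of one kind, which cannot be told apart.

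**Figure D1:**
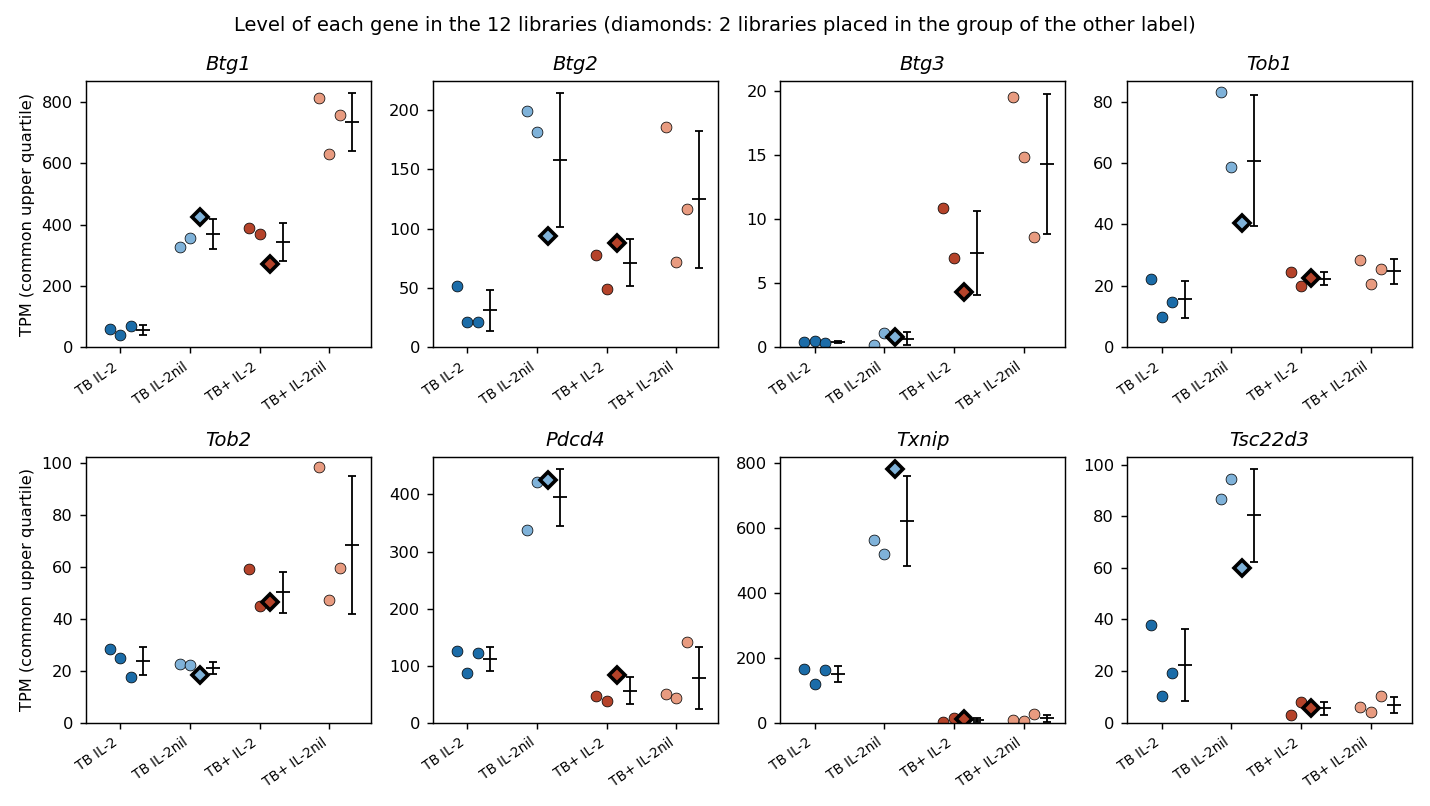
Level in TPM (linear axes from 0) of each of the 8 genes in the 12 libraries. Circles and diamonds are single libraries, diamonds are the 2 libraries placed in the group of the other label, and the bar to the right of each group is the mean ± SD (n = 3). Txnip, Pdcd4 and Tsc22d3 are highest in TB IL-2nil, whereas Btg1 and Btg3 are highest in TB+ IL-2nil. Txnip is lower in both TB+ groups than in either resting group, while for Pdcd4 and Tsc22d3 TB+ IL-2nil overlaps TB IL-2.

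Btg1 was the most abundant of the 5 BTG and TOB genes in every library and was higher without IL-2 in both resting and stimulated cells. Btg1 (chr10:96079635-96085447, plus strand, mm9) encodes the BTG protein best known from resting lymphocytes. Its level was 59.0, 39.8 and 70.1 TPM in the 3 TB IL-2 libraries and 328, 356 and 424 TPM in TB IL-2nil. All 3 withdrawn libraries lay above all 3 with IL-2, and the mean was 56.3 ± 15.4 against 369 ± 49.5 TPM (SD, n = 3). After PMA/I it was 388, 371 and 272 TPM with IL-2 and 815, 630 and 760 TPM without. Thus both single changes brought Btg1 to a like level, with overlapping ranges in TB IL-2nil and TB+ IL-2, and cells given both stood above every other library.

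The Btg1 difference between TB IL-2nil and TB IL-2 was 2.72 ± 0.23 (SE) on the log2 scale, a 6.59-fold difference. It was 2.51 as labelled and 2.62 with both libraries left out. PMA/I in the presence of IL-2 gave a difference of 2.61 (2.82 as labelled and 2.77 without both). In cells already deprived of IL-2 the PMA/I difference was 0.99 ± 0.23 (1.20 as labelled and 1.09 without both), and this size rests on the scaling, being 0.44 without the upper quartile step and 0.33 with quantile normalization. The withdrawal difference among stimulated cells was 1.10 (0.89 as labelled and 0.94 without both). For Btg1, then, no comparison turned direction with the placement of the 2 libraries.

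Btg2 (chr1:135971747-135975697, minus strand) is a close relative of Btg1, known as an early response gene and a p53 target. Its level was 51.3, 21.2 and 20.8 TPM in TB IL-2, 199, 182 and 93.5 TPM in TB IL-2nil, 77.4, 49.0 and 87.6 TPM in TB+ IL-2, and 186, 71.7 and 116 TPM in TB+ IL-2nil. All 3 libraries of TB IL-2nil and of TB+ IL-2nil lay above all 3 of TB IL-2. The TB+ IL-2 libraries overlapped TB IL-2 at their low end and TB+ IL-2nil at their high end, and TB IL-2nil and TB+ IL-2nil overlapped each other. The resting withdrawal difference was 2.36 ± 0.44 (2.33 as labelled and 2.71 without both). PMA/I gave 1.26 with IL-2 (1.29 and 1.09) and -0.37 after withdrawal (-0.34 and -0.72). The withdrawal difference in stimulated cells was 0.73 (0.70 and 0.90), and the SE of each was 0.44. In cells deprived of IL-2 the Btg2 difference with PMA/I was thus smaller than its SE.

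Btg3 (chr16:78360105-78377437, minus strand), a more distant relative of Btg1, was near the 1 TPM minimum or below it in resting cells. It was at 0.43, 0.47 and 0.31 TPM in TB IL-2 and at 0.13, 1.08 and 0.75 TPM in TB IL-2nil. After PMA/I it was at 10.8, 6.97 and 4.28 TPM with IL-2 and at 19.5, 14.8 and 8.59 TPM without it. Every stimulated library was above every resting library, while IL-2 and IL-2nil ranges overlapped in both states. Within each replicate number, stimulated Btg3 was higher without IL-2 than with it, in 3 of 3. The same held for Btg1, Btg2, Tob1, Tob2 and Pdcd4, while Txnip and Tsc22d3 were lower without IL-2 in replicate 2. This holds for the scaled TPM and rests in part on the scaling. In the deposited FPKM, stimulated Tob1 was 7.58, 6.54 and 8.71 with IL-2 and 5.89, 5.09 and 6.77 without it. Btg2, Tob2 and Pdcd4 were also lower without IL-2 in part of the pairs there, whereas Btg1 and Btg3 stayed higher in 3 of 3. The Btg3 difference in stimulated cells was 0.88 ± 0.34 (1.41 as labelled and 0.59 without both). The resting withdrawal difference was 0.19 ± 0.34 (0.72 and 0.13). The PMA/I difference was 2.50 ± 0.34 with IL-2 (1.97 as labelled and 2.79 without both) and 3.19 ± 0.34 after withdrawal (2.66 and 3.24).

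Tob1 (chr11:94072768-94076809, plus strand), known as a negative regulator of T cell proliferation, stood out in a single group. Its level was 22.1, 9.94 and 14.6 TPM in TB IL-2 and 83.1, 58.9 and 40.4 TPM in TB IL-2nil. Stimulated cells had 24.4, 20.1 and 22.5 TPM with IL-2 and 28.3, 20.4 and 25.4 TPM without it. The 3 TB IL-2nil libraries were above all 9 others, whose ranges overlapped between neighbouring groups. The resting withdrawal difference was 1.91 ± 0.30 (1.64 as labelled and 2.17 without both), and PMA/I after withdrawal gave -1.22 ± 0.30 (-0.95 and -1.48). In stimulated cells the withdrawal difference was 0.13 ± 0.30, within its SE, and it was -0.14 as labelled and 0.14 without both.

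Tob2 (chr15:81678700-81688756, minus strand), the other TOB gene, was higher with PMA/I in either IL-2 state. It was at 28.3, 25.0 and 17.7 TPM in TB IL-2 and at 22.5, 22.1 and 18.4 TPM in TB IL-2nil. With PMA/I it was at 59.3, 44.9 and 46.7 TPM with IL-2 and at 98.6, 47.2 and 59.9 TPM without. All 6 stimulated libraries were above all 6 resting ones, and the ranges overlapped between IL-2 and IL-2nil in either state. PMA/I gave 1.07 ± 0.26 with IL-2 (0.64 as labelled and 1.12 without both) and 1.60 ± 0.26 after withdrawal (1.17 and 1.50). Its withdrawal differences were -0.14 in resting (0.29 as labelled and -0.05 without both) and 0.38 in stimulated cells (0.81 and 0.33), and the second was -0.01 without the upper quartile step. A second Ensembl record of the same name overlaps Tob2 in mm9. The methods name RefSeq gene models for the measured levels, and any effect of this overlap on Tob2 was not tested.

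Summed over the 5 BTG and TOB genes, the level was lowest in TB IL-2 and highest in TB+ IL-2nil. The sum was 127 ± 32.5 TPM in TB IL-2, 610 ± 29.0 in TB IL-2nil, 495 ± 63.6 in TB+ IL-2 and 967 ± 182 in TB+ IL-2nil (SD, n = 3). Btg1 made up 36.6% to 56.8% of this sum in TB IL-2 and 71.0% to 80.4% in TB+ IL-2nil. Btg4, the remaining family gene, and the Btg1 pseudogenes Btg1-ps1 and Btg1-ps2 were listed at 0 in all 12 libraries.

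**Figure D2:**
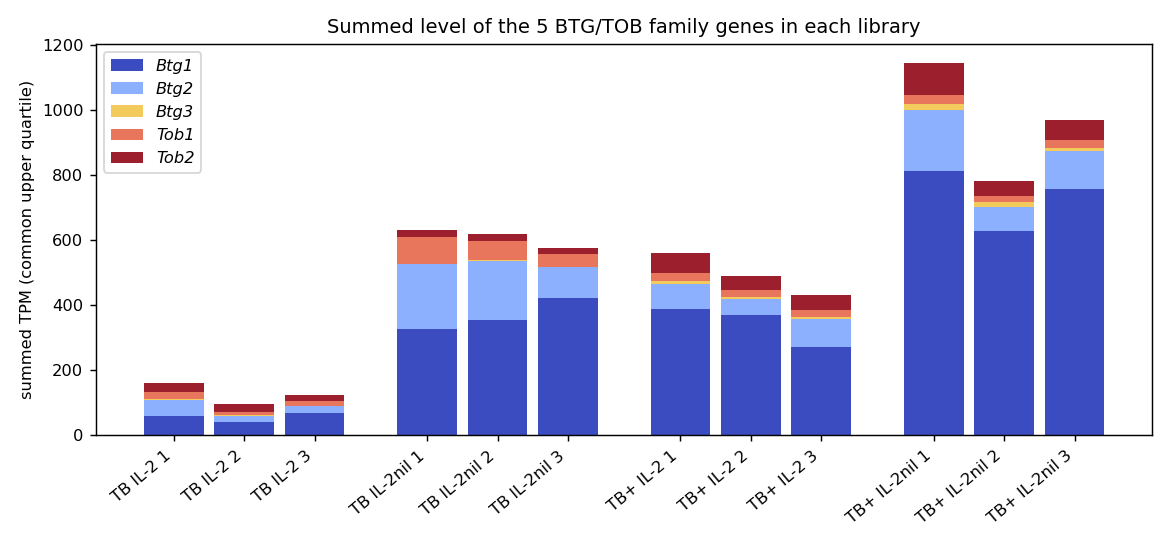
Summed TPM of Btg1, Btg2, Btg3, Tob1 and Tob2 (stacked bars from 0) in each of the 12 libraries, with replicate 3 of TB IL-2nil and of TB+ IL-2 being the 2 moved libraries. The sum is 96.4 to 161 TPM in TB IL-2 and 784 to 1147 TPM in TB+ IL-2nil, and Btg1 is the largest segment of every bar.

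Of all 8 genes, Txnip covered the widest range, from 2.55 to 780 TPM. Txnip (chr3:96361880-96365806, plus strand) was at 167, 120 and 161 TPM in TB IL-2 and at 563, 520 and 780 TPM in TB IL-2nil. After PMA/I it was at 2.55, 13.6 and 12.4 TPM with IL-2 and at 8.45, 4.79 and 26.4 TPM without. The 4 groups fell into 3 separate levels, because the 2 stimulated groups overlapped each other and nothing else. With PMA/I, Txnip was 16.8-fold lower in the presence of IL-2 (log2 difference -4.07 ± 0.59) and 53.5-fold lower after withdrawal (-5.74 ± 0.59). As labelled these were -2.12 and -3.79, and without both libraries -4.37 and -5.57. The resting withdrawal difference of 2.04 ± 0.59 was 0.09 as labelled and 1.87 with both libraries left out. In stimulated cells it was 0.37 ± 0.59, -1.58 as labelled and 0.67 without both.

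Pdcd4 (chr19:53966721-54004351, plus strand) was at 126, 87.5 and 123 TPM in TB IL-2 and at 337, 423 and 425 TPM in TB IL-2nil. In stimulated cells it was at 46.7, 38.8 and 83.9 TPM with IL-2 and at 49.7, 43.6 and 142 TPM without. The TB IL-2nil libraries were above all others, and replicate 3 was the highest of both stimulated groups. In TB+ IL-2nil that replicate, at 142 TPM, lay above every TB IL-2 library. The resting withdrawal difference was 1.82 ± 0.41 (1.04 as labelled and 1.77 without both). PMA/I gave -1.03 ± 0.41 with IL-2 (-0.26 and -1.35) and -2.52 ± 0.41 after withdrawal (-1.74 and -2.47). The stimulated withdrawal difference was 0.34 ± 0.41, below its SE, -0.44 as labelled and 0.65 without both.

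Tsc22d3 (chrX:137074067-137135198, minus strand) had the same order of groups at lower levels. It was at 37.8, 10.3 and 19.3 TPM in TB IL-2, at 86.6, 94.3 and 60.1 TPM in TB IL-2nil, at 2.93, 7.94 and 5.75 TPM in TB+ IL-2 and at 6.27, 4.34 and 10.4 TPM in TB+ IL-2nil. The TB IL-2nil libraries were again above all others, and the lowest TB IL-2 library lay inside the stimulated range. The resting withdrawal difference was 1.95 ± 0.45 (0.89 as labelled and 2.15 without both). PMA/I gave -1.74 ± 0.45 with IL-2 (-0.68 and -1.80) and -3.39 ± 0.45, or 10.5-fold, after withdrawal (-2.33 and -3.58). In stimulated cells the withdrawal difference was 0.30 ± 0.45, -0.76 as labelled and 0.36 without both.

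**Figure D3:**
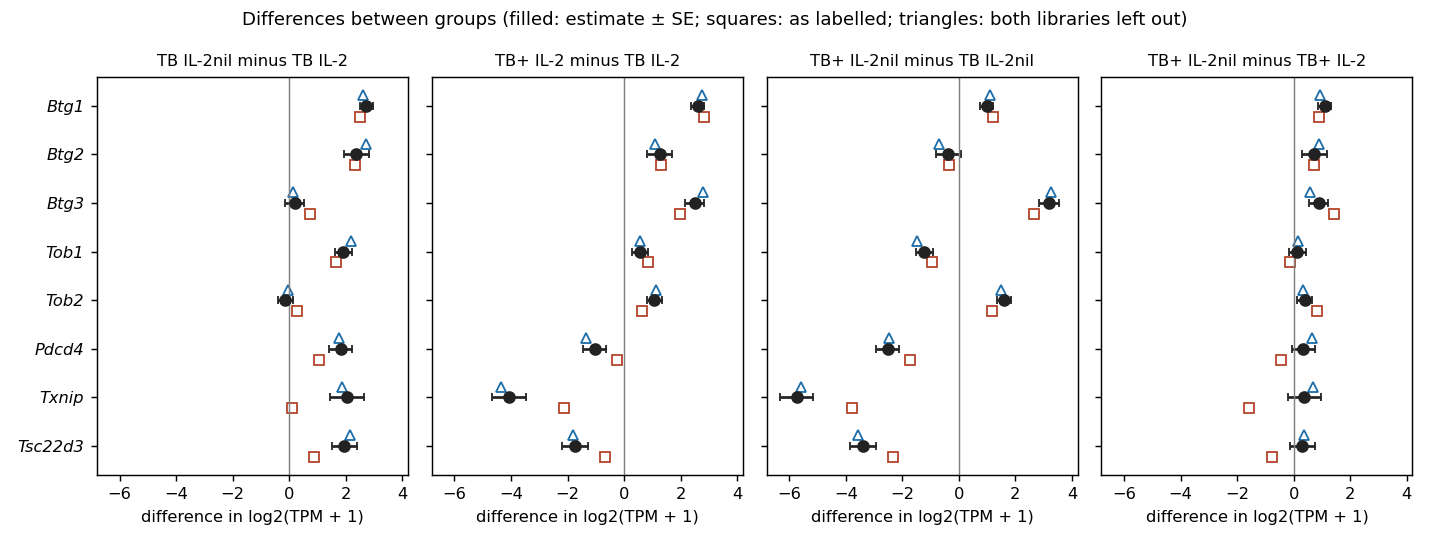
Difference in log2(TPM + 1) of each of the 8 genes in 4 comparisons (one panel each, the second-named group subtracted from the first). Filled circles are the estimates with bars of ± 1 SE, squares are the values as labelled and triangles those with both doubted libraries left out. The squares of Txnip stand well apart from its circles in every panel, at 0.09 against 2.04 for TB IL-2nil minus TB IL-2, whereas the triangles stay near the circles.

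Over the 8 genes, 6 were past a 3-fold difference with an adjusted P under 0.05 (limma, Benjamini-Hochberg) on the higher side after resting withdrawal, where 2.73% of all genes tested were past it on the higher side and 4.69% on the lower. Their median difference was 1.93 against 0.13 over all genes. As the genes were chosen with this comparison in view, nothing is read from these counts. As labelled, 1 gene was past it. With PMA/I in the presence of IL-2, 2 genes (Btg1 and Btg3) were past it on the higher side and 2 (Txnip and Tsc22d3) on the lower, beside 3.94% and 3.1% of all genes. With PMA/I after withdrawal these were 2 (Btg3 and Tob2) and 3 (Txnip, Pdcd4 and Tsc22d3), beside 7.78% and 10.7%. With both libraries left out, Txnip was no longer past it in resting withdrawal, nor Tob2 in PMA/I after withdrawal. Resting Txnip also dropped out without TB IL-2 replicate 2 or TB IL-2nil replicate 3, and resting Tsc22d3 without the former. For PMA/I with IL-2, Tsc22d3 dropped out without replicate 1 of TB IL-2 or of TB+ IL-2 and with median-of-ratios or quantile scaling, and Tob2 after withdrawal dropped out without TB IL-2nil replicate 3 or TB+ IL-2nil replicate 1 and without the upper quartile step.

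Among stimulated cells 0 of the 8 genes were past both thresholds for withdrawal in limma, with or without a replicate block or an intensity trend, although all 8 differences were positive. That shared sign depended on the setting: Tob1, Pdcd4, Txnip and Tsc22d3 were negative as labelled, and Tob1 (-0.25), Tob2 (-0.01), Pdcd4 (-0.05) and Tsc22d3 (-0.02) without the upper quartile step. Pdcd4 (-0.19) and Txnip (-0.26) were also negative without TB+ IL-2nil replicate 3, and Txnip (-0.29) and Tsc22d3 (-0.02) without TB+ IL-2 replicate 1. An unadjusted P under 0.05 in limma was reached by 2 of the 8 genes, and by 4374 of the 12442 genes tested. The shares of all genes past both thresholds were 0.41% higher and 3.21% lower. The median of the 8 differences was 0.38, against 1.93 in resting cells. The difference between the PMA/I responses without and with IL-2, an interaction, was negative for 6 of the 8 genes, from -1.49 for Pdcd4 to -1.78 for Tob1, and was 0.69 for Btg3 and 0.53 for Tob2. Exchanging the 2 libraries leaves these values unchanged by construction, since both groups enter with the same sign. With both libraries left out the 6 negative values ran from -1.11 for Pdcd4 to -2.04 for Tob1, and Btg3 and Tob2 were at 0.45 and 0.38. At an adjusted P under 0.05 alone, 2 genes (Btg1 and Tob1) were past the test, beside 2.66% of all genes on the higher side and 1.57% on the lower. The genes were chosen from these same values, so nothing is read from this count either. That count was 0 with both libraries left out and fell to 0 or 1 without any 1 of 10 libraries, the exceptions being TB IL-2 replicate 1 and TB+ IL-2nil replicate 3.

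Over the 12 libraries Pearson's r of log2(TPM + 1) was 0.95 between Txnip and Tsc22d3, 0.92 between Pdcd4 and Tsc22d3 and 0.91 between Pdcd4 and Txnip. It was 0.93 between Btg3 and Tob2, 0.85 between Btg2 and Tob1 (0.29 between Btg2 and Btg3 and 0.03 between Btg2 and Txnip), and -0.90 between Btg3 and Txnip. For Btg1 it was 0.77 with Btg2 and 0.71 with Btg3 but -0.39 with Txnip. The points are libraries of 4 treated groups that share a scaling, so these values mix group levels with deviations inside the groups. With group means removed, r was 0.84 between Btg2 and Tob1, 0.68 between Pdcd4 and Txnip and 0.66 between Txnip and Tsc22d3. It was 0.47 between Pdcd4 and Tsc22d3, 0.40 between Btg3 and Tob2 and -0.69 between Btg3 and Txnip. For Btg1 it was 0.01 with Btg2, 0.33 with Btg3 and 0.09 with Txnip.

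Genes most like each of the 8 over the 12 libraries were taken by Pearson's r of log2(TPM + 1), with group means kept. For the BTG genes these were Trib2 (r = 0.97) and Mbnl2 for Btg1, Map3k14 (0.98) and Bsdc1 for Btg2, and Cd44 (0.99) and Atp6ap2 for Btg3. They were Usp28 (0.96) and Mon1a for Tob1 and Mex3c (0.98) and Ptpn1 for Tob2. For the remaining genes they were Wdr45 (0.99) and Fam49a for Pdcd4, Rinl (0.99) and Il16 for Txnip, and Rmnd5a (0.98) and H2-K2 for Tsc22d3.

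Genes that work with these proteins were followed in 7 lists of 81 genes, of which 79 were tested, with the same fit and with counts at an adjusted P under 0.05 (limma, Benjamini-Hochberg). The lists too were chosen with earlier results of these data known, so their counts and adjusted P values are a description. In resting withdrawal 22.3% of all genes were past this on the higher side and 17.3% on the lower. For PMA/I with IL-2 these shares were 11.8% and 23.3%, for PMA/I after withdrawal 20.1% and 41.1%, and for withdrawal in stimulated cells 8.4% and 12.9%. Each list count below is to be set against these shares, and several lie near them. With the groups as labelled 0, 1, 4 and 0 list genes were past it in these 4 comparisons, and of 116 calls of named list genes 111 were lost as labelled and 22 with both libraries left out.

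Among the quiescence genes, 11 of 14 rose in resting cells deprived of IL-2 and 0 fell (limma, 0 also at an unadjusted P under 0.05), with a median difference of 1.28 against 0.13 over all genes. The largest was Pik3ip1, an inhibitor of PI3K, at 3.30 ± 0.51 (adjusted P = 0.00077). Vsir, the checkpoint receptor VISTA, rose by 1.87 ± 0.32 (adjusted P = 0.0012), Cdkn1b, the CDK inhibitor p27, by 1.85 ± 0.38 (adjusted P = 0.0036), and Ccng2, a cyclin of non-dividing cells, by 1.79 ± 0.43 (adjusted P = 0.0076). Klf2, a factor of naive T cells, rose by 1.16 (adjusted P = 0.011, and 0.052 without the upper quartile step). After PMA/I of withdrawn cells 9 fell, led by Cdkn1b at -4.26, Pik3ip1 at -4.13, Ccng2 at -4.08 and Klf2 at -3.48, each with an adjusted P of at most 5.2e-05, while Klf4 (3.98) and Vsir (2.09) rose. With IL-2 present, PMA/I lowered 6 of the 14 and raised 2, and among stimulated cells 6 rose on withdrawal and 0 fell (0 also at an unadjusted P under 0.05). That last count of 6 was 0 without the upper quartile step, 1 with both libraries left out, 9 with the block, and 1 without TB+ IL-2 replicate 2 or TB+ IL-2nil replicate 1. It was 2 without replicate 3 of either stimulated group, 3 without TB+ IL-2 replicate 1, and at least 4 without any other library.

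Proliferation genes fell with withdrawal in both states. In resting cells 10 of 12 fell, with a median of -2.47, among them Mcm5 at -3.19 and Mcm2 at -3.16, subunits of the replicative helicase (adjusted P = 6.5e-05 and 3.1e-05). Among stimulated cells 10 of 12 fell, with a median of -3.05. Mki67, a marker of dividing cells, differed by -2.05 ± 0.83 in resting and -2.39 ± 0.83 in stimulated cells, with adjusted P values of 0.069 and 0.062, and with the replicate number as a block these were 0.024 and 0.019. For PMA/I with IL-2, 0 of the 12 passed in limma (2 at an unadjusted P under 0.05, and 3 at the adjusted P with the block). For PMA/I after withdrawal 6 fell and Pcna, the replication clamp, rose by 1.39 (0.84 without the upper quartile step). The count of 6 was 2 with both libraries left out, 1 with no filter on low values, 1 with median-of-ratios scaling, with quantile normalization or without TB IL-2nil replicate 3, 2 without TB+ IL-2nil replicate 1 or 2, 3 without TB IL-2nil replicate 2, and 9 without TB IL-2nil replicate 1.

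The CCR4-NOT genes encode the deadenylase partners of BTG and TOB proteins. Of 11 CCR4-NOT genes, 2 rose and 1 fell on resting withdrawal, beside 22.3% and 17.3% of all genes. The list median was -0.03, against 0.13 over all genes. Cnot9, a subunit that binds regulatory proteins, fell by 1.40 ± 0.15 on the log2 scale (adjusted P = 0.00011) and the catalytic subunit gene Cnot6l rose by 1.18 ± 0.22 (adjusted P = 0.0019). Cnot2 rose by 0.40 (adjusted P = 0.042), a call lost in many settings. Its adjusted P was 0.052 with both libraries left out, 0.23 without the upper quartile step and 0.12 with median-of-ratios scaling. Cnot7 and Cnot8, whose products bind BTG and TOB proteins, were at 32.0 ± 3.69 and 32.9 ± 1.28 TPM in TB IL-2 and at 30.9 ± 4.64 and 35.1 ± 3.15 TPM in TB IL-2nil. With PMA/I after withdrawal 5 of the 11 were lower, a count near the 41.1% of all genes on that side, so nothing is read from it. The list median was -0.32, against -0.38 over all genes. These 5 included Cnot6l at -1.99, Cnot6 at -1.34 and Cnot8 at -0.66. Cnot8 was at -0.27 and no longer past the adjusted P (0.21) with median-of-ratios scaling. In the same comparison Cnot7 differed by 0.52 (adjusted P = 0.013), a value that turned to -0.02 without the upper quartile step and whose call was lost without TB IL-2nil replicate 2.

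Of 7 genes for PAN2-PAN3 and poly(A) binding, 3 rose in resting withdrawal, namely Pan2 (1.20), Pan3 (1.13) and Paip2 (1.06), and Pabpc4 fell (adjusted P = 0.001). PMA/I after withdrawal moved all of these the other way, with Pabpc4 at 1.29 (adjusted P = 6.1e-05) and Pan2, Pan3 and Paip2 at -1.12, -0.88 and -0.71, the call of Paip2 being lost with median-of-ratios scaling (-0.31, adjusted P = 0.23), with no filter on low values, and without TB IL-2nil replicate 2 or TB+ IL-2nil replicate 1. Without the upper quartile step Pabpc4 was at 0.74, and with median-of-ratios scaling Pan2 and Pan3 were at -0.74 and -0.49, all still past the adjusted P. Pabpc1, the main cytoplasmic poly(A) binding protein gene and partner of TOB, was at 957 ± 112 TPM in TB IL-2 and 958 ± 174 TPM in TB IL-2nil. In stimulated cells 0 of the 7 passed for withdrawal in limma (2 at an unadjusted P under 0.05).

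Eif4a1, which encodes the helicase bound by PDCD4, varied opposite to Pdcd4 itself. It was at 713 ± 183 TPM in TB IL-2, 231 ± 25.2 in TB IL-2nil, 1294 ± 184 in TB+ IL-2 and 1304 ± 320 in TB+ IL-2nil. It fell by 1.59 on the log2 scale in resting withdrawal (adjusted P = 0.00062) and rose by 2.46 with PMA/I after withdrawal (adjusted P = 1.1e-05). In these 2 comparisons Eif4e, the cap binding subunit, fell by 1.21 and rose by 2.76. Fbxw11, a subunit of the ubiquitin ligase that marks PDCD4, rose by 1.85 with IL-2 and by 2.47 without it after PMA/I. Btrc, its close relative, fell by 1.25 with PMA/I after withdrawal (adjusted P = 0.00085, and -0.72 with quantile normalization). With IL-2 present Btrc fell by 0.83 with PMA/I (adjusted P = 0.019, and 0.053 with both libraries left out). Its level was low, with group means from 1.04 TPM in TB+ IL-2 to 4.2 TPM in TB IL-2nil. Of the 14 genes of this list 0 rose and 3 fell in resting withdrawal, and 7 rose and 4 fell with PMA/I after it (3 and 6 without the upper quartile step, 8 and 2 with median-of-ratios scaling). The interaction passed for Eif4a1 (1.58, adjusted P = 0.031) and Eif4e (1.72, adjusted P = 0.020), and neither passed with both libraries left out.

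Txn1, the thioredoxin that TXNIP binds, fell by 1.64 ± 0.15 in resting (adjusted P = 6.7e-05) and by 1.44 ± 0.15 in stimulated withdrawal (adjusted P = 0.00023). Slc2a1, the glucose transporter GLUT1, fell by 1.42 in resting withdrawal (adjusted P = 0.0041) and rose by 1.27 with PMA/I after it (adjusted P = 0.0037), the latter being 0.73 with an adjusted P of 0.063 without the upper quartile step. Arrdc4 and Arrdc2, alpha-arrestin relatives of Txnip, rose by 1.32 and 1.12 in resting withdrawal. In all, 2 of the 12 tested genes of this list rose and 4 fell in resting withdrawal. Of those that fell, Txnrd1 (-1.28, adjusted P = 0.030) and Txnrd2 (-0.44, adjusted P = 0.029) depended on the setting. Their adjusted P values were 0.11 and 0.10 with both libraries left out, and 0.068 and 0.38 without the upper quartile step. Mlxip, a glucose-sensing factor known to drive Txnip, rose by 1.56 with PMA/I in IL-2 and by 1.28 without it (0.74 for the latter without the upper quartile step).

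The relatives of Tsc22d3 differed in direction among themselves after PMA/I. Tsc22d2 rose by 2.94 with IL-2 and by 3.36 after withdrawal (adjusted P = 0.00016 and 2.0e-05), whereas Tsc22d4 fell by 1.50 and 1.48. Klf9 and Per1, known glucocorticoid targets, rose by 3.05 and 2.02 with PMA/I after withdrawal. In resting withdrawal itself they differed by -0.23 and 0.97, neither past the threshold (limma, adjusted P = 0.36 and 0.054). Fkbp5, another such target, fell by 2.03 in resting withdrawal (adjusted P = 0.00051), and Nr3c1, the glucocorticoid receptor gene, rose by 0.67 (adjusted P = 0.041), a call that leaving out any 1 of 6 libraries ended. Of the 9 tested genes of this list, 6 rose and 1 fell with PMA/I after withdrawal.

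**Figure D4:**
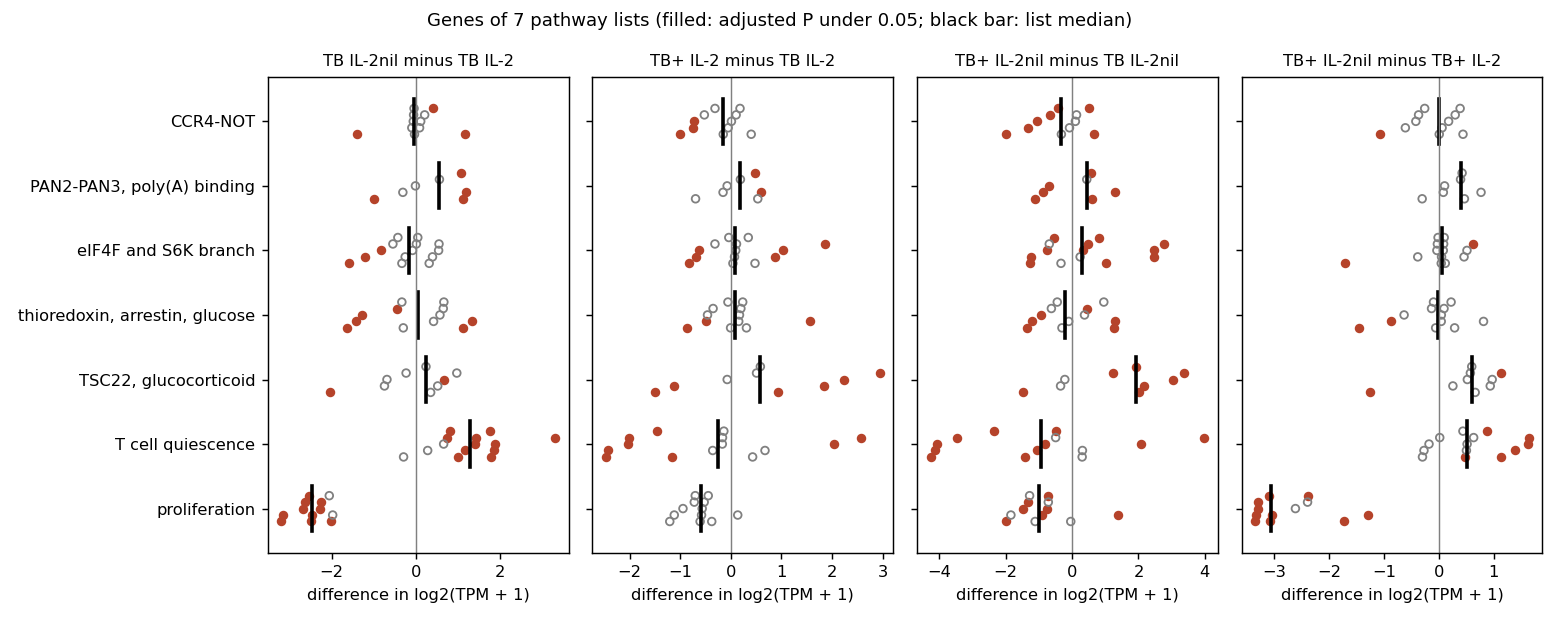
Difference in log2(TPM + 1) of the 79 tested genes of 7 lists in 4 comparisons, one point for each gene. Filled points had an adjusted P under 0.05 and black bars are list medians. In TB IL-2nil minus TB IL-2 the quiescence genes lie mostly to the right, with a median of 1.28, and all 12 proliferation genes lie to the left.

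Over all 7 lists, 23 genes were past the adjusted P for withdrawal in stimulated cells and 3 in the interaction, and these counts became 38 and 9 with the replicate number as a block. The stimulated count was 14 with both libraries left out, 14 without TB+ IL-2 replicate 2, 15 without TB+ IL-2 replicate 3 and 14 without TB+ IL-2nil replicate 1.

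Markers of B cells differed in the same direction as Txnip, Pdcd4 and Tsc22d3. The sum of Cd79a, Cd79b and Ms4a1 was 5.05 to 9.73 TPM in TB IL-2, 20.4 to 26.6 in TB IL-2nil, 2.09 to 2.81 in TB+ IL-2 and 4.74 to 12.1 in TB+ IL-2nil. Each of the 3 was higher in resting withdrawal and lower with PMA/I after it, the largest being Cd79b at 1.60 and -1.88 (adjusted P = 0.0027 and 0.00038). Their part in the differences of the 8 genes was not tested. The T cell markers summed to 1359 to 1379 TPM in TB IL-2 and 1977 to 2167 TPM in TB IL-2nil, and Cd8a and Cd8b1 together to 6.91 to 31.9 TPM over all libraries.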

How the data were processed

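Rows of the deposited files are FPKM per gene name, 1 file for each of 12 libraries. The authors made them from rRNA-depleted, strand-marking libraries. The submitters' processing notes name Trimmomatic 0.32, HISAT2 2.1.0, StringTie 1.3.3 and mm9. The methods describe TPM, but the deposited values are FPKM. Read depth is unknown: values summed to 193815 to 420487 FPKM, and steps among low values put the relative depths within a factor of 2.9, with TB IL-2nil replicate 2 shallowest. No interval for counting error can be given.

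FPKM were rescaled to 1000000 per library (TPM), genes that never exceeded 1 TPM were dropped, and libraries were brought to a common 75th percentile. limma 3.58.1 (R 4.3.3) was fitted to log2(TPM + 1) with 4 group means and 8 residual degrees of freedom, with no replicate block, and P values were adjusted by Benjamini-Hochberg over the 12442 genes. A gene was called at over 3-fold and an adjusted P under 0.05, and the interaction at the adjusted P alone. The fit was tested on simulated data. The 8 genes and all lists were chosen with earlier results of these data known.

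The genes named were the 8 genes, up to 4 genes for each list and comparison with the largest difference past the adjusted P, genes the roles turn on, and for each of the 8 genes those most like it in Pearson's r. Medians are given in the text for some lists only, each beside that of all genes, and no set test was made. B cell markers were fixed with the other cell markers, some of which are not reported here.

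Same-numbered libraries deviated together after the move: 18 of 18 correlations of their deviations from group means were over 0.1 (0.10 to 0.53), so the numbers were taken to pair the samples. The pairing comes from the numbers in the titles, and libraries of different numbers were not compared. The main fit leaves the pairing out, so the SE and P values above ignore it unless the block is named. Alternatives were the groups as labelled, both moved libraries left out, other scalings, filters and a pseudocount of 0.1, limma-trend, leaving out 1279 short non-coding gene names, the replicate block and each library left out in turn. Promoters came from RefSeq (GRCm38.p6) and gene positions from the mm9 annotation. Protein sequences were not used here.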

Additional observations from a re-analysis of the deposited data

Results flagged for a closer look

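For 3 genes of the lists the response to PMA/I differed between cells without and with IL-2 by the test of that difference in limma. The difference between the responses was 1.58 for Eif4a1, 1.72 for Eif4e and 1.25 for Pcna on the log2 scale, with adjusted P values of 0.031, 0.020 and 0.033. With both doubted libraries left out these P values were 0.11, 0.089 and 0.11, and with the replicate number as a block they were 0.017, 0.011 and 0.016. Leaving out 1 library ended the call of Eif4a1 for 10 of the 12 libraries, that of Eif4e for 5 and that of Pcna for 9. With the groups as labelled, 0 genes of the lists passed.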

How the results depend on the processing

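Of the differences of the 8 genes, 885 of 920 recomputed values moved by less than the spread between replicates. Many of these could hardly move, so this count is no measure of stability. Leaving out a library hardly touches comparisons without its group, and limma-trend and the replicate block leave the differences as they were. As labelled, 20 values moved by more than that spread and 20 did not, and those of the interaction could not move by construction. With the groups as labelled, the counts of the 8 genes past both thresholds were 1 for resting withdrawal, 1 for PMA/I with IL-2, 0 for PMA/I after withdrawal and 0 for the interaction, and those of list genes past the adjusted P were 0, 1, 4, 0 for stimulated withdrawal and 0 for the interaction. With both doubted libraries left out, the stimulated list count was 14 and the interaction counts were 0 for the 8 genes and 0 for the lists. Without the upper quartile step the list count for PMA/I with IL-2 was 16 and both interaction counts were 0. A pseudocount of 0.1 left 1 and 1 in the interaction, and no filter on low values left 1 of the 8 genes. With the replicate number as a block the stimulated list count was 38 and the interaction list count 9. The block ended no call of a named gene, and it brought others past the adjusted P, of which Mki67 and the counts of list genes are given above. Leaving out each library in turn gave 4 to 6 of the 8 genes and 33 to 44 list genes in resting withdrawal, 3 to 4 and 19 to 30 for PMA/I with IL-2, 4 to 5 and 45 to 56 for PMA/I after withdrawal, 0 to 0 and 14 to 25 in stimulated withdrawal, and 0 to 3 and 0 to 8 in the interaction. Among list genes past the adjusted P, signs turned for Cnot7 (-0.024) and Txn1 (-0.11) without the upper quartile step, for Pabpc1 (-0.20) and Txn1 (-0.0015) with quantile normalization and for Txn1 (-0.23) as labelled, all in PMA/I after withdrawal, and for Pik3ip1 (-0.35) in stimulated withdrawal as labelled. Among the 8 genes, the turned signs in stimulated withdrawal and of resting Tob2 are given above, and Btg2 turned to 0.03 in PMA/I after withdrawal with median-of-ratios scaling. The cause was not tested. Without the upper quartile step the median of all genes moved from -0.38 to -0.78 for PMA/I after withdrawal and from 0.04 to -0.23 for stimulated withdrawal, and in PMA/I after withdrawal the genes called were 638 higher and 2539 lower against 968 and 1328, or 1310 and 737 with median-of-ratios scaling.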

Other observations

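Replicate 3 was the highest stimulated library of both IL-2 states for Pdcd4, at 83.9 TPM with IL-2 and 142 TPM without, where the other 4 stimulated libraries had 38.8 to 49.7 TPM. Among the TB+ IL-2nil libraries it was also the highest for Txnip, at 26.4 TPM, and for Tsc22d3, at 10.4 TPM, and the lowest for Btg3, at 8.59 TPM. In TB+ IL-2 the library placed as replicate 3 was the lowest for Btg3, at 4.28 TPM, and neither highest nor lowest for Txnip and Tsc22d3.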
